A study of Mus musculus with 4 samples.

Results

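Rora and Rorb, which encode the retinoic acid receptor-related orphan receptors alpha and beta, were followed in accessible chromatin of single sorted nuclei, together with the deposited transcription factor motifs named for their proteins. The genes were 2 of 21938 protein-coding genes and the motifs 3 of 579 (RORA_MA0071.1, RORA(var.2)_MA0072.1 and RORB_MA1150.1), all chosen by name. The nuclei came from mouse brain at postnatal day 30, with 2 libraries of cortex and 2 of hippocampus. All 4 libraries shared the genotype Dlx6aCre;Sun1/sfGFP, in which a Cre under the control of Dlx6a, a gene of forebrain inhibitory neurons, switches on a nuclear envelope protein fused to GFP, and nuclei positive for GFP were sorted, so the data describe that sort and not the whole tissue. The libraries held 2355 to 5576 nuclei with a median of 7352 to 47236 cut sites of the transposase in peaks, and cortex replicate 1 was the deepest and cortex replicate 2 the shallowest. Nothing in the labels says that the 2 libraries of a tissue came from separate animals, so p-values measure the spread between these libraries, and 11 to 47 cell barcodes were shared by any pair of libraries. Lists of 4 values always run through both cortex libraries and then both hippocampus libraries, replicate 1 before replicate 2 in each tissue.

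ROR proteins are nuclear receptors that bind DNA as monomers. They recognise the core AGGTCA preceded by a short stretch rich in A and T, which is called the ROR response element, and they activate transcription by recruiting coactivators, while the related repressors Nr1d1 and Nr1d2 compete for the same element in the circadian clock. RORA is best known for its need in cerebellar Purkinje cells, which degenerate in the staggerer mutant. RORB marks layer 4 excitatory neurons of the cortex. Accessible chromatin at a gene is not its expression, and a motif count says that DNA holding the letters was open, not that a protein was bound.

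The sequences behind the motif counts were traced first, since the deposited names do not give letters. The deposited RORA_MA0071.1 count of each nucleus was equal to its cut sites in peaks holding ATCAAGGTCA, on either strand, in 100.0% of nuclei of cortex replicate 1 and of hippocampus replicate 1. In those libraries 254 of 127726 and 238 of 157220 peaks held this word. In cortex replicate 2 the same peaks gave 75.8% of the deposited total, and peaks holding ATCAAGGTCA or ATAAAGGTCA gave all of it, with 100.0% of nuclei equal. In hippocampus replicate 2 the 2 words together gave 101.6% of the deposited total and 63.3% of nuclei were equal. The motif named RORA_MA0071.1 was therefore counted over a single word in both replicate 1 libraries and over 2 words in cortex replicate 2. The other ROR motifs were not traced to words.

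The textbook response element was searched for as AANTAGGTCA or ATNTAGGTCA on both strands, which stands for 8 words of 10 letters. Of 46698 windows of 300 bp, each centred on a peak of a region shared by all libraries, 12.35% held AGGTCA and 0.67% held the longer element. The following 60-base stretches (GRCm38, RefSeq sequence) are the sites whose regions had the smallest p between the gates described below, 3 in the direction of the Pvalb gate and 2 in the direction of the Sst gate. The printed sites were chosen after their values were seen, and capitals mark the element.
Cps1 intron, chr1:67170738-67170797, plus strand: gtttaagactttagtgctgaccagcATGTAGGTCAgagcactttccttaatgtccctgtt
intergenic, 73.2 kb past the start of Ypel2, chr11:86920973-86921032, minus strand: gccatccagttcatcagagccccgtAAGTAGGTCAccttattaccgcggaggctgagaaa
Gm37240 intron, chr3:85323532-85323591, minus strand: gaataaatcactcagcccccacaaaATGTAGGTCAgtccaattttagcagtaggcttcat
Mettl24 intron, chr10:40763151-40763210, plus strand: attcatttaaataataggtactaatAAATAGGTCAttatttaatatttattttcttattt
intergenic, 70.3 kb past the start of Actr2, chr11:20043093-20043152, minus strand: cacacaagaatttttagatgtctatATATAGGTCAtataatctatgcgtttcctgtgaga

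Rora (ENSMUSG00000032238) lies on the plus strand at chr9:68653786-69388246 of GRCm38, and Rorb (ENSMUSG00000036192) on the minus strand at chr19:18930605-19111196. Each library's own peaks were used. Rora was covered by 78, 23, 81 and 46 peaks and Rorb by 8, 2, 4 and 3. Rora, a very long gene, collected 41363, 6112, 23052 and 12171 cut sites, and Rorb 4921, 768, 1810 and 1499. By total cut sites Rora ranked 135, 493, 171 and 228 among the 14786 genes with a peak in every library. Per kb of gene it lay low, above 17.5%, 10.3%, 16.1% and 12.2% of those genes, and Rorb lay lower still, above 6.4%, 4.7%, 2.3% and 4.5% of them. On the scale of cut sites per 1000000 cut sites in peaks (CPM) and kb of gene, Rora was at 0.479, 0.259, 0.432 and 0.345 and Rorb at 0.230, 0.131, 0.137 and 0.171. Rora was above Rorb in each library on that scale. Per kb of peak the order was the reverse in each library, with Rora at 7.84, 23.4, 7.93 and 12.4 CPM and Rorb at 9.3, 30.0, 9.77 and 13.0. Sums over nuclei cannot tell fewer nuclei of a type from less accessibility per nucleus, here and below.

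Most Rora signal lay inside the gene rather than at its starts. Only 25.6%, 32.7%, 14.0% and 29.5% of Rora cut sites fell within 2 kb of an annotated transcript start, against 59.9%, 76.3%, 59.6% and 70.5% of Rorb cut sites and 48.0%, 55.3%, 40.0% and 51.8% of all cut sites in peaks. Of the 5 annotated Rora starts, the one at chr9:68653786, its neighbour at chr9:68653891 and the internal start at chr9:69289682 carried a peak in all 4 libraries. The start of Rorb at chr19:19111196 carried a peak in all 4, and its 3 annotated starts near chr19:19001100 carried none in any library. Thinned to 3000 cut sites per nucleus, 58.6%, 36.8%, 54.7% and 46.4% of nuclei had a cut site in Rora and 11.2%, 6.1%, 6.0% and 8.1% had one in Rorb, with 0, 414, 381 and 67 shallower nuclei left out. Unthinned, the shares were 96.5%, 52.5%, 77.0% and 78.2% for Rora and 57.4%, 9.6%, 15.3% and 20.9% for Rorb.

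The first comparison asked whether the Ror genes and motifs differ between hippocampus and cortex. Rora was at 368.7 and 172.4 normalised CPM in cortex and 351.2 and 244.0 in hippocampus, and the tissues overlapped. The log2 difference, hippocampus minus cortex, was 0.14 ± 0.44 (SE, edgeR, adjusted p = 1.00, n = 2 libraries per tissue). Rorb was at 43.9 and 21.7 in cortex and 27.6 and 30.1 in hippocampus, with a log2 difference of -0.19 ± 0.35 (adjusted p = 1.00). The cortex libraries differed from each other by more than the tissues did for both genes. Of all 16323 genes tested, 0.00613% passed, and 357 had an unadjusted p under 0.05, while DESeq2 called 298. For Rora the sign of the difference depended on which part of the gene was counted, at -0.0017 in regions shared by all libraries and -0.24 within 2 kb of transcript starts, and it turned to -0.28 without cortex replicate 2 and -0.15 without hippocampus replicate 1. For Rorb it turned to 0.41 without cortex replicate 1.

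None of the 3 ROR motifs was called between tissues, in a test that recovered 1 of 36 motifs changed 2-fold in simulated data. RORA_MA0071.1 held 243.7, 162.4, 228.5 and 221.8 of every 1000000 motif counts, with a log2 difference of 0.15 ± 0.35. RORA(var.2)_MA0072.1 held 173.0, 368.9, 146.6 and 166.0 (log2 difference -0.79 ± 0.45), and RORB_MA1150.1 118.5, 136.3, 113.9 and 100.7 (-0.25 ± 0.34). All 3 had an adjusted p of 0.997 (edgeR), 0% of the 579 motifs passed, 1 had an unadjusted p under 0.05, and the high library for the var.2 motif was cortex replicate 2. Without cortex replicate 1, which leaves cortex replicate 2 alone in its tissue and assumes that it varies like the hippocampus libraries, var.2 was at -1.24. The words behind var.2 were not traced, so its values may rest on unlike words in different libraries. The median of all motifs was 437.2, 701.6, 445.4 and 527.8 per 1000000 motif counts. The part of unlike counting in the var.2 difference was not tested. Counted over the single word ATCAAGGTCA in all libraries, the RORA difference was 0.024 ± 0.68 (log2 of CPM, added after the words had been traced). The 3 motifs made up between 0.0488% and 0.0668% of all motif counts.

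**Figure D1:**
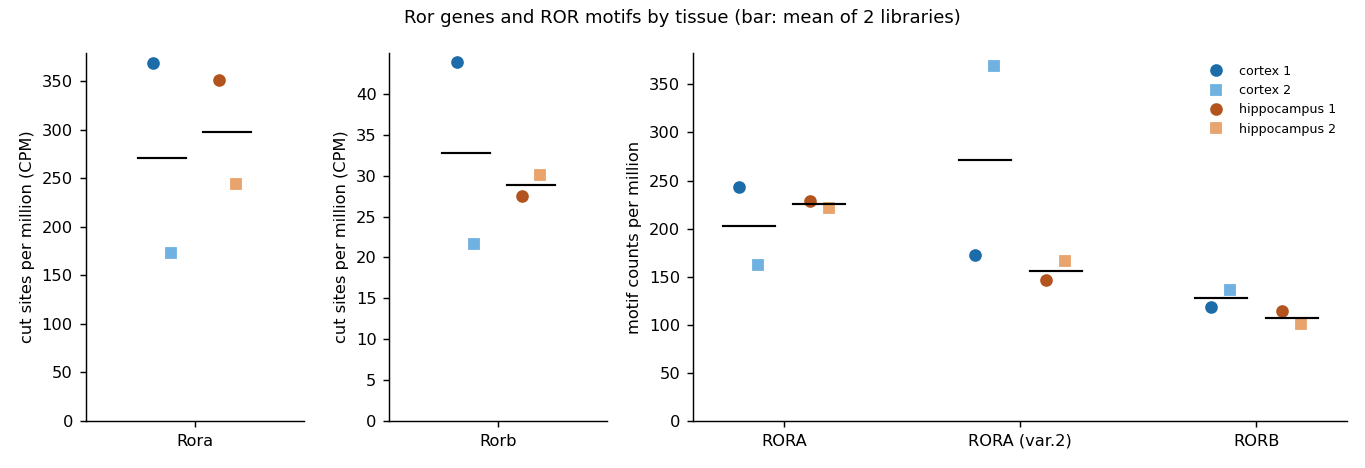
Normalised cut sites (CPM) of Rora and Rorb (left, middle) and motif counts per 1000000 motif counts for the 3 ROR motifs (right), 1 point per library, with bars at the mean of the 2 libraries of a tissue. Cortex replicate 2 is the lowest library for Rora, at 172.4, and the highest for RORA (var.2), at 368.9.

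Nuclei were next divided by accessibility of 3 interneuron markers: Pvalb, a calcium-binding protein gene of fast-spiking interneurons, Sst, the somatostatin gene, and Adarb2, a gene of interneurons from the caudal ganglionic eminence. A nucleus entered a gate when its cut sites in exactly 1 of these genes, per cut site in peaks, were in the top 20% of nuclei of the same library and depth class (5 classes of equal size per library). At least 1 cut site in the gene was needed. A cut site was found in 58.1%, 12.4%, 16.55% and 16.1% of nuclei for Pvalb, 30.9%, 6.8%, 6.9% and 5.6% for Sst and 65.9%, 12.4%, 57.7% and 43.6% for Adarb2. Where fewer than 20% of nuclei had one, the need for a cut site largely set the gate. The Pvalb gates held 383, 400, 592 and 365 nuclei, the Sst gates 345, 231, 303 and 144, and the Adarb2 gates 362, 420, 969 and 545. Depth still differed between gates. Median cut sites per nucleus were 47846, 8934, 15692 and 16912 in the Pvalb gates and 46713, 8677, 16650 and 18121 in the Sst gates. In the Adarb2 gates they were 45941, 8168, 12021 and 14129. The 3 gate genes chose the nuclei and were not tested. Markers that played no part in the choice moved with the gates. Of 8 genes of interneurons from the medial ganglionic eminence 5 were higher in the Pvalb gate and 5 in the Sst gate than in the Adarb2 gate and none were lower, led by Lhx6 and Sox6, where 5.41% and 4.7% of all genes were called higher. Of 8 genes of the caudal eminence 7 and 5 were lower, where 4.64% and 4.13% of all genes were. A gate holds nuclei chosen by cut sites in 1 marker gene, often few, and is not a cell type. In hippocampus replicate 2 the 144 nuclei of the Sst gate held 302 Sst cut sites.

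Rora was more accessible in the Pvalb and Adarb2 gates than in the Sst gate in every library. In the Pvalb gates it stood at 427.9, 177.5, 380.1 and 268.6 normalised CPM and in the Sst gates at 274.8, 145.0, 302.9 and 201.6. The Adarb2 gates held 391.0, 182.5, 360.1 and 267.4, close to the Pvalb gates. Within each library the Sst gate was thus the lowest of the 3, while the libraries overlapped across gates because their overall levels differed. Pvalb minus Sst gave a log2 difference of 0.43 ± 0.058 (35.0% higher, edgeR with library as a block, adjusted p = 2.3e-05, higher in 4 of 4 libraries, range 0.29 to 0.64), rank 28 by p among 16165 genes, where 4.5% of genes were called higher and 8.42% in either direction. Sst minus Adarb2 gave -0.38 ± 0.058 (adjusted p = 5.9e-05, lower in 4 of 4), where 4.13% of genes were called lower and 8.83% in either direction. Pvalb minus Adarb2 was 0.051 ± 0.055 (adjusted p = 0.650), with a range of -0.041 to 0.13 over the libraries, where 10.1% of genes were called. Without cortex replicate 1, the library with the largest difference, Pvalb minus Sst was 0.34 (adjusted p = 5.2e-04). Within 2 kb of transcript starts Sst minus Adarb2 was -0.24 and no longer passed (adjusted p = 0.085), and without library as a block no gene was called, with an adjusted p of 1.00 for both Rora contrasts. Of 8 genes of the oligodendrocyte lineage 3 were lower in the Sst than in the Adarb2 gate, and their summed level was 217 to 305 CPM in the Sst, 260 to 313 in the Pvalb and 236 to 305 in the Adarb2 gates, with 0 to 4 of the 8 at 0 in a library. Of 7 genes common to inhibitory neurons (pan-GABA), Gad1 and Dlx1 were lower in the Sst than in the Adarb2 gate and 0 were higher. Gad1 was also higher in Pvalb than in Sst (0.25 ± 0.055, adjusted p = 0.0031). The pan-GABA sum was lowest in the Sst gate of every library, at 1043, 637, 823 and 957 CPM. It was 1102, 680, 859.5 and 977 in the Pvalb and 1189, 706, 934 and 1057 in the Adarb2 gates. The part of these cells and genes in the Rora differences was not tested.

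Rorb showed no called difference between the gates. It stood at 49.8, 17.5, 33.5 and 32.1 CPM in the Pvalb gates, 38.8, 20.04, 34.2 and 32.7 in the Sst gates and 36.9, 20.6, 25.1 and 28.3 in the Adarb2 gates. The log2 differences were 0.27 ± 0.11 for Pvalb minus Adarb2 (adjusted p = 0.139, higher in 3 of 4), 0.18 ± 0.12 for Sst minus Adarb2 (adjusted p = 0.453) and 0.089 ± 0.12 for Pvalb minus Sst (adjusted p = 0.749). The first passed when gates took the top 10% of nuclei (0.45, adjusted p = 0.034) and without cortex replicate 2 (0.36, adjusted p = 0.045). Cortex replicate 1 was the highest library in every gate.

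**Figure D2:**
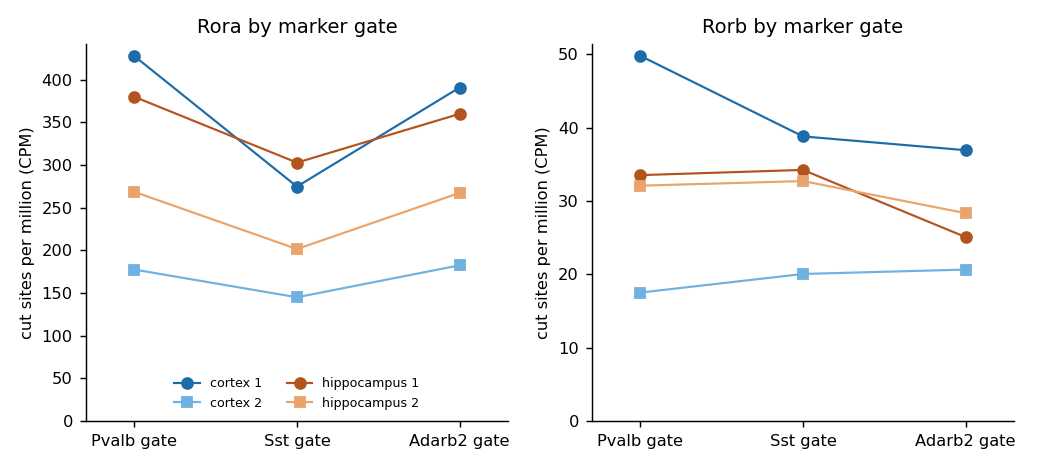
Normalised cut sites (CPM) in Rora (left) and Rorb (right) in the 3 marker gates, with a line for each library. For Rora the Sst gate is the lowest point of all 4 lines, while for Rorb the lines do not share an order.

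The Rora signal was then resolved along the gene. Of its common regions (merged regions with a peak in every library), 13 lie in the gene or the 2 kb upstream, numbered R1 to R13 from its 5′ end, and they carried 49.3%, 84.2%, 43.4% and 62.6% of its cut sites. Between the Pvalb and Sst gates 4 of the 13 were called higher and 0 lower, against 8.69% of all 46685 regions higher. Between Sst and Adarb2, 2 were higher and 4 lower (background 11.2% and 10.7%), and between Pvalb and Adarb2, 2 were higher and 2 lower (background 10.4% each). Between the Pvalb and Adarb2 gates, which were close over the whole gene, regions were called in both directions, in numbers near the background share. The median log2 difference over the 13 was 0.34, -0.32 and 0.0028 in these contrasts, against medians of 0.0047, -0.015 and -0.010 over all regions.

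The region with the largest difference was R6, an intronic region at chr9:68940530-68941622, 287.3 kb from the gene start. It held 27.8, 25.2, 19.2 and 11.5 CPM in the Adarb2 gates, against 5.5, 9.1, 3.4 and 2.9 in the Pvalb gates and 3.8, 11.2, 2.5 and 1.8 in the Sst gates. Every Adarb2 gate lay above every Pvalb and Sst gate. The log2 differences were -2.41 ± 0.26 for Sst minus Adarb2 (adjusted p = 1.7e-07) and -2.12 ± 0.23 for Pvalb minus Adarb2 (adjusted p = 6.8e-07), the latter at rank 44 by p of 46685 regions. Intronic R2, at chr9:68732785-68733679 and 79.5 kb from the start, went the other way, with 22.3, 23.1, 10.1 and 7.7 CPM in the Pvalb gates, 12.7, 17.4, 7.7 and 7.8 in the Sst gates and 6.7, 11.4, 4.0 and 2.3 in the Adarb2 gates. Its log2 differences were 1.45 ± 0.21 for Pvalb minus Adarb2 (adjusted p = 1.3e-05) and 0.98 ± 0.22 for Sst minus Adarb2 (adjusted p = 0.0015). Pvalb minus Sst was 0.47 ± 0.21 (adjusted p = 0.126). The R2 call for Sst minus Adarb2 was lost with gates set on thinned counts (0.58, adjusted p = 0.208) and without library as a block (adjusted p = 0.460), which also ended the calls for Pvalb minus Adarb2 in R2 (adjusted p = 0.228) and R6 (adjusted p = 0.090). R3, an intronic region at chr9:68751863-68752467, went with R6 and was lower than in the Adarb2 gate in both the Sst (-1.09 ± 0.28, adjusted p = 0.0041) and the Pvalb gate (-0.75 ± 0.25, adjusted p = 0.033).

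These 2 regions are shown as 300-base windows around the middle of the shortest peak they hold (GRCm38, plus strand), since they separate the Adarb2 gate from the others in opposite directions. Capitals mark AGGTCA, which R2 holds once and R6 does not hold.
Rora R2, chr9:68733033-68733332: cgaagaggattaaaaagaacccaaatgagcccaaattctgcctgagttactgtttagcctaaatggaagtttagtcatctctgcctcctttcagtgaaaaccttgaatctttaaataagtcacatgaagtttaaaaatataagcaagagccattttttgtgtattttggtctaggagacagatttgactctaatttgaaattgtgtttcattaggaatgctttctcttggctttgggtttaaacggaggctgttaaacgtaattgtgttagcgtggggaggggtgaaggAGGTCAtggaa
Rora R6, chr9:68941071-68941370: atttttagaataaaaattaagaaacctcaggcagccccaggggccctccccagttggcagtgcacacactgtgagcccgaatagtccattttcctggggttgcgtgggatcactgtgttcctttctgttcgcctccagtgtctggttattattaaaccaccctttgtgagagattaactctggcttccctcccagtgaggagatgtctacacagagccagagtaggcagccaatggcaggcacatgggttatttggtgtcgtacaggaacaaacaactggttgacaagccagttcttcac

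R9 and R10 were lower in the Sst gate than in both others. Intronic R9, at chr9:69125173-69126520, held 7.1, 7.5, 8.5 and 8.5 CPM in the Sst gates, 16.8, 16.6, 12.6 and 10.2 in the Pvalb gates and 22.7, 16.8, 15.4 and 15.4 in the Adarb2 gates. It was lower in Sst than in Adarb2 by a log2 difference of -1.20 ± 0.20 (adjusted p = 5.4e-05) and higher in Pvalb than in Sst by 0.86 ± 0.20 (adjusted p = 0.0034). The Sst gates of all libraries lay below every Pvalb and Adarb2 gate in R9. The internal start, R10 at chr9:69289030-69291425, was higher in Pvalb than in Sst by 0.57 ± 0.12 (adjusted p = 0.0013), at 45.6, 28.6, 21.6 and 35.1 against 29.3, 22.0, 15.9 and 20.1 CPM. The 5′ start, R1 at chr9:68652991-68657023, was higher by 0.34 ± 0.10 (adjusted p = 0.014), at 58.0, 29.8, 41.8 and 46.3 against 46.4, 23.2, 31.8 and 37.1 CPM, while Sst minus Adarb2 was -0.12 ± 0.098 there (adjusted p = 0.476). Both starts were higher in the Pvalb gate in 4 of 4 libraries, and R10 was also lower in Sst than in Adarb2 (-0.43 ± 0.12, adjusted p = 0.012). Without cortex replicate 1, R9 (0.64, adjusted p = 0.112) and R1 (0.35, adjusted p = 0.118) no longer passed between Pvalb and Sst, and R10 no longer between Sst and Adarb2 (-0.44, adjusted p = 0.078). The last call was also lost without hippocampus replicate 2 (-0.37, adjusted p = 0.081), with the top 10% of nuclei (-0.33, adjusted p = 0.115) and with gates set on thinned counts (-0.21, adjusted p = 0.493). With thinned gates neither start passed between Pvalb and Sst (0.38 for R10, adjusted p = 0.145, and 0.21 for R1, adjusted p = 0.430). R7, an intronic region at chr9:68995494-68996189, was, like R2, higher in the Sst than in the Adarb2 gate, by 1.11 ± 0.32 (adjusted p = 0.011).

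R11, an intronic region at chr9:69342227-69343173 and 688.9 kb from the gene start, was higher in both hippocampus than in both cortex libraries. Whole libraries held 6.2 and 5.6 CPM in cortex and 24.4 and 17.2 in hippocampus without overlap, a log2 difference of 1.81 ± 0.29 whose adjusted p was 0.511, and 0% of regions passed between tissues (edgeR, with 7.66% at an unadjusted p under 0.05). Among the gates, R11 was higher in Pvalb than in Adarb2 (0.79 ± 0.21, adjusted p = 0.0067) and than in Sst (0.66 ± 0.22, adjusted p = 0.032), and the former no longer passed without hippocampus replicate 1 (0.60, adjusted p = 0.150) or replicate 2 (0.71, adjusted p = 0.053). R4, at chr9:68888473-68889309, also separated the tissues without overlap, at 5.4 and 4.6 against 14.3 and 11.7 CPM (log2 difference 1.37 ± 0.29, adjusted p = 0.511). R2 had the reverse order, at 13.8 and 14.5 CPM in cortex and 7.7 and 6.0 in hippocampus (-1.05 ± 0.28, adjusted p = 0.511). The hippocampus libraries also lay below the cortex libraries in R6 (-0.77, adjusted p = 0.726) and R9 (-0.31, adjusted p = 0.940), and none of these regions passed. Each library's own peaks covered unlike lengths of a region, 675, 269, 837 and 713 bp of R4 and 726, 344, 947 and 851 bp of R11. They covered 895, 593, 657 and 580 bp of R2 and 1093, 676, 674 and 547 bp of R6. The CPM were not scaled to these lengths, and the part of peak width in the tissue differences was not tested. The Rorb regions, an intronic R1 at chr19:18974978-18975494 and the start R2 at chr19:19109990-19111866, were called in no gate contrast (0 of 2).

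**Figure D3:**
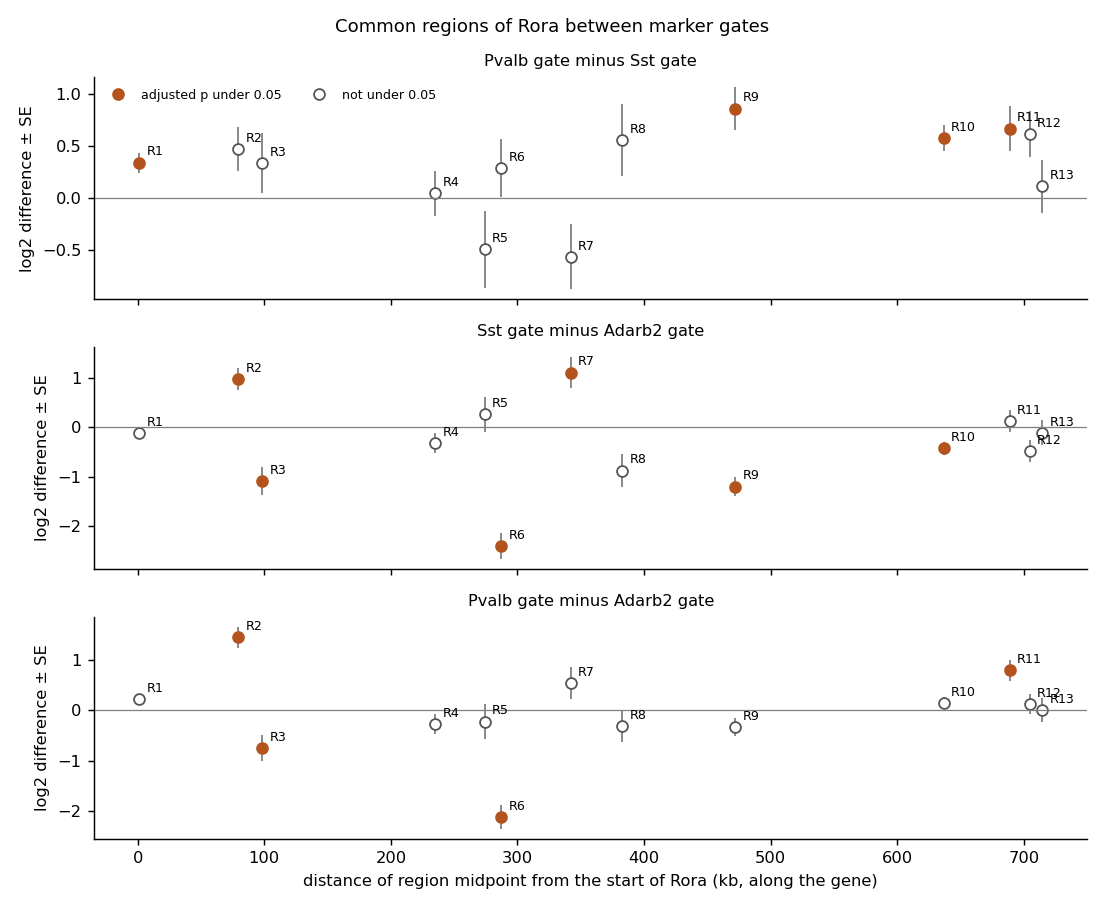
Log2 differences between marker gates (edgeR estimate ± SE over 4 libraries) of the 13 common regions of Rora against the distance of their midpoints from the start of the gene, with filled points for an adjusted p under 0.05. In the top panel all filled points lie above 0, and in the lower panels R6 lies lowest, at -2.41 and -2.12, and R2 among the highest.

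The ROR motifs were highest in the Pvalb gates. This held for all 3 motifs in all 4 libraries, and the Sst gate was the lowest except for RORA_MA0071.1 in both hippocampus libraries. RORA(var.2)_MA0072.1 held 186.6, 392.1, 157.3 and 176.6 per 1000000 motif counts in the Pvalb gates, 163.6, 350.8, 135.7 and 155.3 in the Sst gates and 171.4, 375.3, 150.1 and 168.3 in the Adarb2 gates. Pvalb minus Sst was 0.19 ± 0.015 (adjusted p = 1.2e-04), the highest of all 579 motifs. RORB_MA1150.1 (0.16 ± 0.012, adjusted p = 1.2e-04) ranked 3 and RORA_MA0071.1 (0.13 ± 0.027, adjusted p = 0.011) ranked 6 from the highest. All 3 were higher in 4 of 4 libraries, where 14.7% of motifs were called higher. TMM scaling left all 3 called, while the numbers of motifs called higher and lower went from 85 and 49 to 28 and 36. The differences amounted to 9.2% to 13.8%. RORA_MA0071.1 no longer passed without cortex replicate 1 (0.10, adjusted p = 0.125), cortex replicate 2 (0.12, adjusted p = 0.063) or hippocampus replicate 1 (0.14, adjusted p = 0.053), and none of the motifs passed without library as a block (adjusted p = 1.00).

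In the contrast of the Sst with the Adarb2 gate, the var.2 and RORB motifs were among the lowest of all, at ranks 573 and 572 of 579. Their log2 differences were -0.11 ± 0.014 and -0.10 ± 0.012, with adjusted p = 0.0011 and 5.9e-04, lower in 4 of 4 libraries, where 18% of motifs were called lower. RORA_MA0071.1 went apart from them, at 0.029 ± 0.027 (adjusted p = 0.421), rank 104. In Pvalb minus Adarb2 it was rank 3 from the highest, at 0.16 ± 0.026 (adjusted p = 0.0032), while var.2 was at 0.082 ± 0.014 (adjusted p = 0.0036) and RORB at 0.057 ± 0.012 (adjusted p = 0.0085, and 0.053 without hippocampus replicate 2), where 21.2% of motifs were called higher. With TMM scaling the same motifs passed, and the numbers called higher and lower went from 111 and 104 to 69 and 102 for Sst minus Adarb2 and from 123 and 88 to 64 and 82 for Pvalb minus Adarb2. The 3 motifs may share peaks and are not independent. Across nuclei the var.2 and RORB shares had Spearman correlations of 0.42, 0.34, 0.26 and 0.36, and RORA_MA0071.1 and RORB 0.23, 0.079, 0.011 and 0.050 (all motif shares rest on the same cut sites of a nucleus).

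**Figure D4:**
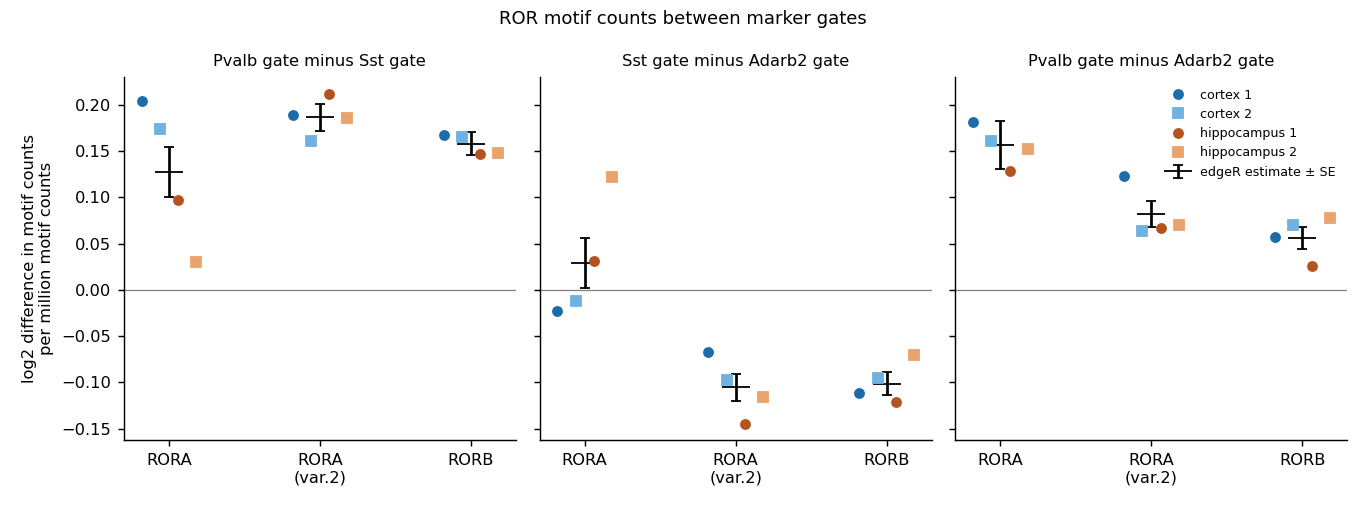
Log2 differences in ROR motif counts per 1000000 motif counts between marker gates, with a point for each library and the edgeR estimate ± SE in black. All points lie above 0 in the left panel, while in the middle panel all points of RORA (var.2) and RORB lie below 0 and those of RORA spread around 0.

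A motif count may include cut sites of the genes that chose the gates. In each library, all cut sites of its own gate gene were taken away from the gate with the higher motif share, and none from the other gate. They are the most that this gene could have added to that gate. Pvalb minus Sst was then 0.11 to 0.12 over the libraries for var.2, 0.020 to 0.055 for RORB and -0.016 to 0.15 for RORA_MA0071.1. Sst minus Adarb2 was -0.045 to 0.15 for var.2 and -0.018 to 0.28 for RORB. Pvalb minus Adarb2 was then -0.027 to 0.048 for var.2, -0.10 to -0.026 for RORB and 0.044 to 0.13 for RORA_MA0071.1. With the Rora cut sites taken away from both gates as well, Pvalb minus Sst was 0.060 to 0.10 for var.2, -0.043 to -0.00038 for RORB and -0.043 to 0.12 for RORA_MA0071.1. In both replicate 1 libraries, where RORA_MA0071.1 counts ATCAAGGTCA alone, 1 Pvalb peak of cortex replicate 1 held that word. No Sst, Adarb2 or Rora peak did. For that motif in those libraries the subtraction takes away more than these genes added. The words were therefore also counted without these genes. Cut sites were summed over peaks holding each of the 256 words NNNNAGGTCA, leaving out peaks of Pvalb, Sst, Adarb2 and the Ror genes, and the 256 words were fitted together, although they can share peaks (an analysis added after the data had been seen). The 8 response element words were all higher in the Pvalb than in the Sst gate, where 61.7% of the 256 words were called higher, with a median log2 difference of 0.17 against 0.060 for all words. They took ranks 1, 2, 4, 5, 6, 12, 27 and 46 of 256 from the highest. AACTAGGTCA was at 4368, 2147, 2555 and 2327 CPM in the Pvalb gates and 3488, 1854, 2235 and 1999 in the Sst gates, a difference of 0.24 ± 0.024 (adjusted p = 1.0e-21). AAGTAGGTCA followed at 0.24 ± 0.021 (adjusted p = 4.6e-27). All 8 remained called when any 1 library was left out. The word p-values, here and in the next paragraph, pool the spread over 256 words that can share peaks. They are far smaller than the spread between 4 libraries alone would give, and calls among words rest on them.

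Against the Adarb2 gate the words split. AATTAGGTCA was the lowest of all 256 words in Sst minus Adarb2, at -0.15 ± 0.025 (adjusted p = 9.7e-08), with 2517, 922, 1714 and 1384 CPM in the Sst gates and 2734, 1076, 1961 and 1487 in the Adarb2 gates. In that contrast 4 of the 8 words were called lower and 0 higher, where 2.73% of words were lower and 0.391% higher, and AATTAGGTCA and ATCTAGGTCA stayed called when any 1 library was left out, while AAGTAGGTCA and ATGTAGGTCA did not. In Pvalb minus Adarb2, 6 of the 8 were higher, where 45.3% of words were higher (ATCTAGGTCA and ATTTAGGTCA not without every library), and AATTAGGTCA was at 0.023 ± 0.024 (adjusted p = 0.406). ATCAAGGTCA, the word counted as RORA_MA0071.1, was again apart, at 0.019 ± 0.021 in Sst minus Adarb2 (adjusted p = 0.743), 0.13 ± 0.021 in Pvalb minus Sst (adjusted p = 4.6e-08) and 0.15 ± 0.021 in Pvalb minus Adarb2 (adjusted p = 1.6e-10).

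Regions were then counted by the sequence they hold. Of the 1104 common regions holding the response element, 246 were higher and 67 lower in the Pvalb than in the Sst gate, 22.3% and 6.1%. Of the 22235 regions holding AGGTCA without the longer element 9.9% were higher and 7.2% lower, and of all 46685 regions 8.7% and 9.1%. Regions with the element were longer than others (median 1488 bp against 1133 bp for all), and nearly as long as those with AGGTCA alone (1441 bp). In Sst minus Adarb2, 9.1% of regions with the element were higher and 15.8% lower (11.2% and 10.7% of all regions), and in Pvalb minus Adarb2 15.8% and 7.2% (10.4% each). The median log2 differences of regions with the element were 0.12, -0.072 and 0.089 in these contrasts, against 0.0047, -0.015 and -0.010 over all regions. Most regions with the element passed in neither direction, and 67 went against the majority. The shares are counts of regions that passed and were given no test of their own. Without cortex replicate 1 the counts for Pvalb minus Sst were 131 and 38, with gates set on thinned counts 126 and 33, and without library as a block 11 and 3. For Sst minus Adarb2 they went from 100 and 174 to 74 and 95 without cortex replicate 1 and 43 and 93 with thinned gates, and for Pvalb minus Adarb2 from 174 and 80 to 126 and 42 and to 49 and 27. Without library as a block they were 17 and 19 for Sst minus Adarb2 and 4 and 2 for Pvalb minus Adarb2.

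The sites printed above show both directions. The region around the Cps1 intron element held 35.4, 30.5, 40.2 and 28.7 CPM in the Pvalb gates and 8.4, 9.1, 15.5 and 18.7 in the Sst gates, a log2 difference of 1.49 ± 0.18 (adjusted p = 3.1e-06). The region past Ypel2 held 37.6, 36.1, 25.4 and 29.1 against 14.5, 20.3, 12.2 and 13.1 (1.14 ± 0.14, adjusted p = 4.2e-06). The Gm37240 region held 29.4, 21.6, 13.3 and 8.6 against 7.8, 7.9, 4.1 and 3.5 (1.65 ± 0.22, adjusted p = 6.3e-06). All 3 were higher in the Pvalb gate in every library. The Mettl24 region went the other way, at 25.7, 24.5, 17.0 and 13.8 in the Pvalb gates against 69.2, 56.8, 41.6 and 28.6 in the Sst gates (-1.29 ± 0.11, adjusted p = 3.4e-08). The region past Actr2 was lower in the Pvalb gates as well, at 16.6, 12.3, 23.0 and 20.4 against 47.9, 37.3, 43.2 and 40.3 (-1.24 ± 0.15, adjusted p = 2.9e-06).

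**Figure D5:**
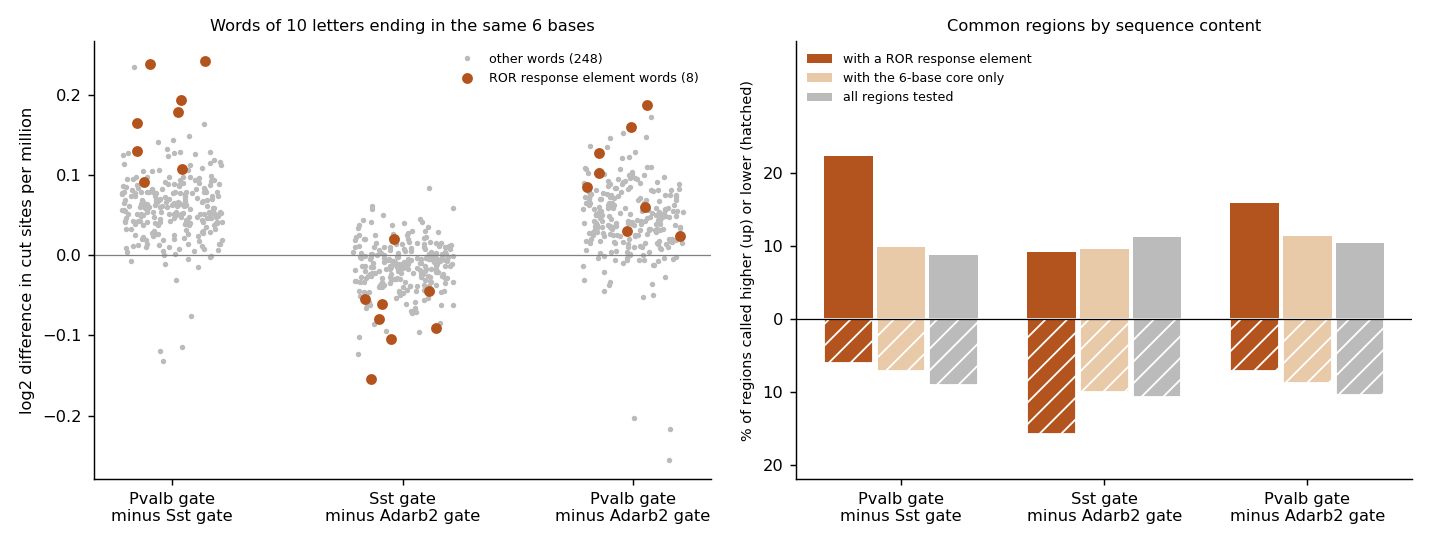
Left, log2 differences between marker gates in cut sites (CPM) of peaks holding each of 256 words that end in the same core, with the 8 response element words as large points. Right, percentage of common regions called higher (bars up) or lower (hatched bars down) in each contrast, by sequence content. The 8 words lie in the upper part of the Pvalb minus Sst column, and 22.3% of regions with the element are called higher there against 8.7% of all regions.

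The Ror genes themselves were searched in the same way. The printed window of R2 holds AGGTCA, and those of the other 5 named Rora regions and both Rorb regions do not. Of each library's own Rora peaks 18, 4, 17 and 12 hold the core with 4 bases before it, and in 1 of them, in cortex replicate 1, those bases start with A and end with T. The 250 bases upstream of the RefSeq starts of Rora and Rorb hold no AGGTCA, which 14.02% of 32851 promoters of that length hold. That the letters are missing from these windows says nothing of the protein elsewhere.

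Nuclei were also ordered by Rora itself. In each library the 20% of nuclei with the most Rora cut sites for their depth were compared with the 20% with the fewest. Only 52.5%, 77.0% and 78.2% of nuclei of cortex replicate 2 and hippocampus replicates 1 and 2 had a Rora cut site. Where nuclei without one made up more than 20% of a depth class, the low group took the first of them in the deposited order. Cut sites in peaks holding the response element, outside the Ror and gate genes, made up 28177, 13165, 19732 and 17436 CPM in the Rora-high nuclei and 24324, 12797, 18591 and 16132 in the Rora-low nuclei. The log2 differences were 0.21, 0.041, 0.086 and 0.11, higher in 4 of 4 libraries. Peaks with AGGTCA alone differed by 0.037, 0.0064, -0.0017 and 0.0002. The deposited var.2 and RORB motifs were higher in Rora-high nuclei in 4 of 4 libraries, by 0.13 to 0.20 in 3 of the libraries for var.2 and 0.056 in cortex replicate 2, while RORA_MA0071.1 differed by 0.091, -0.034, 0.0070 and 0.018. With all Rora cut sites taken away from the motif, the most they could have added, these differences were below 0 in every library and motif. No Rora peak held ATCAAGGTCA in any library. For RORA_MA0071.1 in both replicate 1 libraries, which counts that word alone, the subtraction therefore takes away too much. These values describe nuclei of the same libraries and carry no test.

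Between single nuclei thinned to 1 depth the Ror genes and the markers were hardly correlated. With nuclei thinned to 3000 cut sites, the Spearman correlation of Rora with Sst was -0.064, -0.0045, -0.020 and -0.043 and that with Pvalb 0.056, 0.0025, 0.028 and 0.020, over 2355 to 5195 nuclei. That with Adarb2 was 0.031, -0.017, 0.025 and 0.053. At that depth 1.6% to 6.1% of nuclei had an Sst and 5.5% to 15.8% a Pvalb cut site. Unthinned and not scaled to depth, Rora correlated at 0.46, 0.11, 0.19 and 0.15 with Pvalb. With Adarb2 the values were 0.31, 0.079, 0.30 and 0.20, and with Sst -0.026, 0.016, 0.055 and 0.018. Shares were clearer. A Rora cut site was found in 70.2%, 39.1%, 59.6% and 48.4% of nuclei of the Pvalb gates and in 50.4%, 32.4%, 48.8% and 36.8% of the Sst gates, a mean difference of 12.2 percentage points (SD 5.5 over 4 libraries). The Adarb2 gates held 60.5%, 34.7%, 56.1% and 50.5%. For Rorb the same difference was -0.24 points (SD 1.1), smaller than its spread. Unthinned, the Rora difference was 5.2 points.

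Whether the gate differences themselves differ between the tissues was tested with 2 libraries of each. The interaction of tissue and gate was not called for Rora (Pvalb minus Sst, -0.15 ± 0.11, hippocampus minus cortex, adjusted p = 0.808), for Rorb (-0.24 ± 0.23, adjusted p = 0.876) or for a ROR motif, where 0.346% of genes and 0.518% of motifs passed, nor was a ROR motif in Sst minus Adarb2 (0% passed) or Pvalb minus Adarb2 (0.691%). The nearest was RORA_MA0071.1, whose Pvalb minus Sst difference was 0.20, 0.17, 0.097 and 0.030 in the 4 libraries (-0.13 ± 0.032, adjusted p = 0.252), and it passed without cortex replicate 2 (-0.14, adjusted p = 7.7e-04), where 250 motifs did. Without that library it also passed in Sst minus Adarb2 (0.095, adjusted p = 0.0028, where 287 motifs did) and in Pvalb minus Adarb2 (-0.042, adjusted p = 0.026, where 228 did). Within gates, the tissue difference of Rora was 0.10 ± 0.46 in the Pvalb, 0.25 ± 0.37 in the Sst and 0.12 ± 0.42 in the Adarb2 gate (adjusted p = 1.00 in each), where 0.00622%, 0.00634% and 0.00619% of genes passed.

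Genes that act with the receptors were counted from lists. The repressors Nr1d1 and Nr1d2 were called in no gate contrast (0 of 2). Of 9 coregulators 1 was higher and 0 lower in the Pvalb than in the Sst gate, with a median log2 difference of 0.029 against -0.000327 over all genes, of which 4.5% were higher and 3.92% lower. It was Ppargc1a, a coactivator of mitochondrial genes (0.58 ± 0.13, adjusted p = 0.0031). Against the Adarb2 gate, Ncoa3, Ppargc1a and Nrip1 were higher in the Pvalb gate (3 of 9, against 5.41% of all genes), and Ncoa3 was higher in the Sst gate (1 of 9, against 4.7%). Of 5 clock genes known to carry a response element only Arntl was called, higher in Pvalb than in Sst by 0.20 ± 0.059 (adjusted p = 0.031), where 4.5% of all genes were higher. Of 6 genes bound by RORA in Purkinje cells 5 could be tested, and in the same contrast Shh (0.36 ± 0.092, adjusted p = 0.013) and Itpr1 (0.23 ± 0.066, adjusted p = 0.025) were higher and Cacna1g was lower, where 3.92% of all genes were (-0.35 ± 0.063, adjusted p = 4.3e-04). No member of these lists was called between tissues.

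The genes whose levels followed Rora most closely over the 12 gate sums, after the mean of each library had been subtracted, were Galnt18 (Pearson r = 0.993), Sgk1 (0.974), Zbtb43 (0.971), Prkca (0.965) and Plxna4 (0.958), of 6112 genes compared. For Rorb, among 6113 genes, they were Iscu (0.941), Trnp1 (0.934), Frs2 (0.899), Asphd1 (0.889) and Ralyl (0.870). The 12 sums share 4 libraries and the 3 gates, so these values describe likeness and were not tested.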

How the data were processed

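Single-nucleus ATAC-seq was read from the deposited count matrices of 4 libraries, 2 of cortex and 2 of hippocampus. Per the labels, the authors processed the reads with Cell Ranger ATAC 1.2.0, and the deposited files hold whole-number counts of transposase cut sites per peak and of cut sites assigned to each of 579 motifs, per nucleus, with peaks called in each library on its own (mm10, GRCm38). The style of the accompanying article was followed, but it describes another experiment and gives no method for these files. A gene value was the sum of cut sites in the library's own peaks that touch the gene (GENCODE M21) or the 2 kb before it. Common regions were peaks of the libraries merged at an overlap of 1 bp that hold a peak of every library.

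Nuclei were summed per library, or per library and marker gate, and not used as replicates. No doublet caller was run and doublets were not removed, although nuclei high in more than 1 gate gene entered no gate. The two-sided quasi-likelihood test of edgeR 4.0.16, in its robust form, was applied to the sums, with TMM and filterByExpr for genes and regions, total motif counts as library size for motifs and library as a block between gates and Benjamini-Hochberg adjustment over all genes, motifs or regions of a contrast and a threshold of 0.05. Each ± is a standard error unless SD is given. The scripts were tested on simulated data. Between tissues they recovered 0 of 50 genes changed 1.5-fold, 4 of 50 changed 2-fold and 26 of 50 changed 4-fold, with 12 false calls. For motifs it was 0, 1 and 23 of 36, with 0 false calls. Between the Pvalb and Sst gates they recovered 40 of 50 genes, 36 of 36 motifs and 12 of 50 regions changed 1.5-fold, with 7, 6 and 6 false calls. Small tissue differences would thus mostly be missed. Some genes and motifs are not reported here. Nuclei were thinned to 3000 cut sites for shares, leaving out shallower ones.

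Named were Rora, Rorb and their motifs, the regions over transcript starts, the 3 regions of smallest p per gate contrast in each gene, and the 5 genes most correlated with each (mean CPM of at least 50, log2 with a pseudocount of 1). R3, R4, R7 and the printed element sites were chosen after their values were seen, and so were the word counts, the element regions and the crossed pairing. The members and lists were chosen with earlier results of these data known. DESeq2 1.42.0, limma 3.58.1, other scalings, filters, gates, gene parts and left-out libraries were the alternatives. The replicate numbers are shared by the tissues, and deviations of same-numbered libraries correlated at 0.072 over genes, -0.030 over regions and 0.68 over motifs, which with 2 pairs does not show that they pair. Intervals were not computed, and errors cover the spread between libraries.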

Additional observations from a re-analysis of the deposited data

Results flagged for a closer look

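The Rora region R11 went opposite ways in the tissues between the Sst and Adarb2 gates. The log2 difference, Sst minus Adarb2, was -0.77 and -0.13 in cortex replicates 1 and 2 but 0.48 and 0.81 in hippocampus replicates 1 and 2, so every library of one tissue moved one way and every library of the other the opposite way. In cortex replicate 2 the difference was small, 4.98 CPM in the Sst against 5.44 in the Adarb2 gate. All nuclei of that library together held 200 cut sites in R11. The difference between the tissues was not tested for this region.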

How the results depend on the processing

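The sign of the Rora difference between gates held in all alternatives run for Pvalb minus Sst and Sst minus Adarb2, and the calls held in all but those named here. The cause of each change was not tested. Without library as a block, 0 genes and 0 motifs were called in each gate contrast and 257, 1594 and 392 regions (Pvalb minus Adarb2, Sst minus Adarb2, Pvalb minus Sst). Rora was then at 0.44 (Pvalb minus Sst) and -0.38 (Sst minus Adarb2), the 3 ROR motifs at 0.12 (RORA_MA0071.1), 0.18 (var.2) and 0.16 (RORB) for Pvalb minus Sst, var.2 and RORB at -0.10 and -0.10 for Sst minus Adarb2, and RORA_MA0071.1, var.2 and RORB at 0.16, 0.077 and 0.058 for Pvalb minus Adarb2, none passing. With gates set on thinned counts the same contrasts gave 340, 575 and 653 genes and 2717, 5320 and 4387 regions, 130 motifs for Pvalb minus Adarb2 and 84 for Pvalb minus Sst, where RORA_MA0071.1 was 0.10 (adjusted p = 0.098). Within 2 kb of transcript starts 620 genes (Sst minus Adarb2) and 831 (Pvalb minus Sst) were called, and Rora was -0.24 in the former. For Pvalb minus Sst motifs, limma called 71 and TMM scaling 64. With the top 10% of nuclei, Rorb was 0.45 for Pvalb minus Adarb2 and 0 motifs had an interaction with tissue for Pvalb minus Adarb2 or Pvalb minus Sst.

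Between tissues, DESeq2 called 298 genes and 352 regions, scaling to total cut sites 20 and 275, and counting common regions 2 genes, with Rora at -0.0017 there and -0.24 near transcript starts. With the replicate number as a block, 0 genes were called between tissues (58 with the pairing crossed), also 0 in the Pvalb and 0 in the Adarb2 gate, and Rorb in the Pvalb gate was 0.12. The block changed no other call. In common regions 2, 3 and 2 genes were called within the Pvalb, Sst and Adarb2 gates, with Rorb at 0.043 in the first and Rora at -0.039 in the last. The uncalled Rorb regions changed sign, R1 to -0.17 (Pvalb minus Adarb2) and -0.37 (Pvalb minus Sst) with thinned gates and to -0.14 (top 10%) and -0.011 (without nuclei low in pan-GABA genes) for Sst minus Adarb2, and R2 to -0.0028 (without those nuclei) and -0.025 (no library block) for Pvalb minus Sst. The difference in the share of nuclei with a Rora cut site was 6.2 percentage points at 1000 cut sites and 5.2 unthinned, and that of Rorb 1.0 unthinned.

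Leaving out 1 library at a time gave 0 to 397 genes, 0 to 3184 regions and 0 to 100 motifs between tissues, with the highest counts without cortex replicate 1. In the order Pvalb minus Adarb2, Sst minus Adarb2, Pvalb minus Sst it gave 816 to 1395, 891 to 1171 and 478 to 1089 genes, 105 to 155, 131 to 159 and 31 to 104 motifs, and for the first and last 6137 to 8382 and 3896 to 7175 regions. Within the Pvalb, Sst and Adarb2 gates it gave 1 to 123, 1 to 159 and 1 to 501 genes between tissues, and for interactions 0 to 211, 1 to 149 and 1 to 295 genes and 0 to 228, 0 to 287 and 0 to 250 motifs. The tissue differences ran from -0.28 to 0.79 (Rora), -0.58 to 0.41 (Rorb), -0.11 to 0.47 (RORA_MA0071.1) and -1.24 to -0.15 (var.2). Within gates they ran from -0.38 to 0.87, -0.10 to 0.79 and -0.30 to 0.79 for Rora and from -0.58 to 0.91, -0.19 to 0.73 and -0.45 to 0.38 for Rorb. Between gates, Rorb ran from 0.18 to 0.36 (Pvalb minus Adarb2) and -0.070 to 0.14 (Pvalb minus Sst), its R1 from -0.29 to 0.23 (Sst minus Adarb2) and R2 from -0.18 to 0.15 (Pvalb minus Sst), the RORB motif from 0.050 to 0.068 (Pvalb minus Adarb2) and RORA_MA0071.1 from -0.00087 to 0.051 (Sst minus Adarb2) and 0.10 to 0.16 (Pvalb minus Sst). Interactions ran from -0.070 to 0.084 (Rora) and -0.11 to 0.54 (Rorb) for Pvalb minus Adarb2, -0.27 to 0.070 and -0.38 to 0.16 for Pvalb minus Sst, -0.054 to 0.0052 (var.2) and -0.036 to 0.015 (RORB) for Pvalb minus Adarb2, and -0.016 to 0.034 (RORB) for Sst minus Adarb2.

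The tissue comparison rests on 2 libraries per tissue, with medians of 7352 to 47236 cut sites per nucleus, and Rorb on 768 cut sites in the shallowest library. The part of depth in these results was not tested.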
